A study of Mus musculus with 3 samples.

Results

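Interferon-stimulated genes (ISGs) are the genes that cells switch on when they sense interferons, the cytokines of antiviral defense. The 48 ISGs described here were listed by name, with earlier results of these data known. All 48 were found once in each of the 2 deposited tables, among 30595 gene symbols that both tables list once. They were treated as 26 antiviral effectors, 7 GTPases of the GBP and IRG families, 3 genes of antigen processing, and 12 regulators and sensors.

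The cells were hepatic stellate cells (HSCs), which store vitamin A in the healthy liver and can turn into matrix-producing myofibroblasts in fibrosis. They were purified on a Nycodenz gradient from livers of C57BL/6 mice, which were wild-type females more than 24 weeks old. All cells were starved in DMEM with 0.2% FBS for 24 h, and they then received no stimulus (untreated), recombinant human FGF18 at 100 ng/mL, or TGFb1 at 1 ng/mL, for a further 24 h. FGF18 is a fibroblast growth factor, and TGFb1 is the main profibrotic cytokine of the liver. The labels hold 1 record per condition, whereas the study describes triplicate samples, and whether these came from separate isolations is not stated. The labels put 80 to 90% of the isolated cells as UV-positive, the sign of stored vitamin A, so the cultures may also have held other liver cells, and a typical yield was obtained from 2 mice.

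Type I interferons bind the receptor chains IFNAR1 and IFNAR2, whose kinases are JAK1 and TYK2. STAT2 and IRF9 are part of the complex that then binds the interferon-stimulated response element (ISRE) in the promoters of ISGs. Interferon gamma acts through another receptor and another promoter element, the gamma-activated site (GAS). Many ISGs keep a low level of expression without infection, and the products of several of them, such as IRF7 and STAT2, amplify the response itself. In rodents, interferon gamma is known to restrain the activation of HSCs.

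The measurement was the authors' mean level of each gene in each group, in TPM (a share of all transcripts), a unit corrected for transcript length, so that levels can be set beside each other between genes. The tables used here hold no value per library, so the depth of each library is unknown. The authors' own standard errors and p-values were not used, so no difference below has an error or a test, and each is the size of a difference between group means. A log2 ratio is that of 2 group means after adding 1 TPM to each, which understates differences of genes near or below 1 TPM. Throughout, 1.5-fold and 2-fold refer to this ratio after adding 1 TPM, and differences were counted on that scale beside the share of all genes with a mean over the 3 groups of at least 1 TPM (20908 genes). All 48 members passed that filter, and 38 also had a mean of at least 10 TPM, as had 9429 genes in all. In bulk samples, fewer cells of a type and less RNA per cell cannot be told apart.

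In untreated HSCs, every member had a level above 2 TPM, from *Mx2* at 2.12 TPM to *Ifitm2* at 2378 TPM, with a median of 26.1 TPM. *Ifitm2* and *Ifitm3*, which encode membrane proteins that block the entry of viruses, stood far above the rest and made up 64.8% of the summed level of 7165 TPM. The next highest were *Ifitm1* of the same family (356 TPM), *Lgals3bp*, which encodes a secreted glycoprotein that binds galectins (336 TPM), and *Ifi27*, which encodes a small mitochondrial protein (319 TPM). *Bst2*, which encodes tetherin, a protein that holds budding viruses at the cell surface, had a level of 219 TPM and *Rtp4* one of 110 TPM. Near the lower end were *Oas2* at 2.95 TPM and *Oas3* at 2.94 TPM, which encode enzymes that make 2′-5′ oligoadenylates in the presence of double-stranded RNA. The order of genes that lie this close cannot be told without a spread.

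The summed level of the 48 members was 5422 TPM with FGF18 and 5507 TPM with TGFb1. Without *Ifitm2* and *Ifitm3* the sums were 2520 TPM in untreated cells, 1684 TPM with FGF18 and 1854 TPM with TGFb1. Both stimulated cultures thus had a lower total than the untreated one, and the same held without the 2 most abundant members. Both differences are taken from the same untreated means, so they are not independent of each other.

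**Figure D1:**
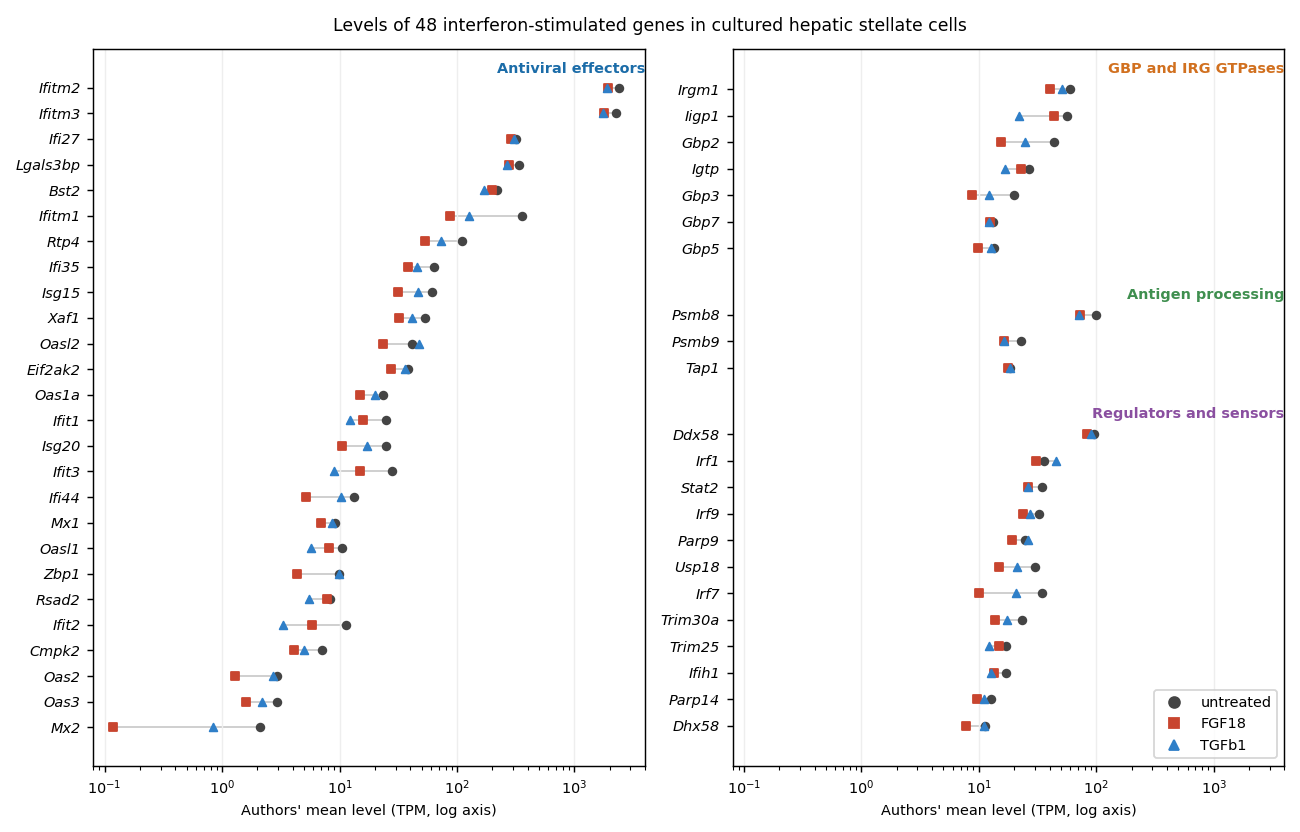
The authors' mean level of each of the 48 ISGs in TPM (log axis) in untreated, FGF18 and TGFb1 cultures, 1 point per group mean and no error, ordered by mean level within each class. The FGF18 points lie to the left of the untreated points in every row, whereas *Irf1* and *Oasl2* have their highest point with TGFb1.

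Many ISGs carry an ISRE, which was searched on both strands as GAAA, any 2 bases and GAAA again, in RefSeq promoter windows of GRCm38.p6 that span 250 bases before to 50 bases after the start of each gene. Windows were found for 37 members and not for the other 11. Of these 37, 20 (54.1%) held at least 1 match, against 3.99% of 27025 genes. All 6 GTPase genes with a window held one, as did 10 of 20 effectors, 4 of 8 regulators and 0 of 3 antigen processing genes. GAS, searched as TTCNNNGAA, which is its own reverse complement, was matched in 12 of the 37 members (32.4%), against 9.55% of all genes. A match is a stretch of letters and not a measured binding site. The windows around the matches are shown for *Isg15*, a member with overlapping matches, and for members of gene families whose ratios differed from one member to another (below). Matches are in capitals.
Isg15: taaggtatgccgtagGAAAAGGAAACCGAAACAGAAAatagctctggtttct
Ifit1: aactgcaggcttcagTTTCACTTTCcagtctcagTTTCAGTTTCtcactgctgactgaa
Ifit3: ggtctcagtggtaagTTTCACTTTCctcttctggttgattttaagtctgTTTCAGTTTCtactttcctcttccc
Ifitm2: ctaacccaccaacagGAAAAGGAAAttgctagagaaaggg
Gbp2: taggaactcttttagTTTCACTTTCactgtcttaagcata
Gbp3: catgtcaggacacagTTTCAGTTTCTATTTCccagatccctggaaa
Irgm1: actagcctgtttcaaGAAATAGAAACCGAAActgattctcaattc
Igtp: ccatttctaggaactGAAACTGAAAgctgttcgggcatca

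These stretches lie at chr4:156200860-156200911 (*Isg15*, minus strand), chr19:34640770-34640828 (*Ifit1*, plus strand), chr19:34583358-34583431 (*Ifit3*, plus), chr7:140955983-140956022 (*Ifitm2*, minus), chr3:142620589-142620628 (*Gbp2*, plus), chr3:142559984-142560029 (*Gbp3*, plus), chr11:48871421-48871465 (*Irgm1*, minus) and chr11:58199507-58199546 (*Igtp*, plus). *Isg15* held 3 overlapping matches, the first starting 78 bases before the start of the gene. *Ifit1* held 2 separate matches, the farther one 104 bases before its start, and *Ifit3* held 2, the farther one at 156 bases. The windows of *Ifitm1* and *Irf7* held 0 matches to either motif. The same was true of other members, among them *Tap1* and *Trim25*, whose log2 ratios with FGF18 were small (-0.03 and -0.18). In the 20 members with an ISRE match the median log2 ratio was -0.44 with FGF18 and -0.37 with TGFb1, and in the 17 without one it was -0.68 and -0.45. Both sets had lower medians than all genes (-0.121 and -0.003).

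With FGF18, all 48 members had a lower level than in untreated HSCs. Among all genes of at least 1 TPM, 61.8% were lower with FGF18, and among those of at least 10 TPM 54.2%, where 38 of 38 members were lower. The median log2 ratio was -0.48 over the members and -0.121 over all genes. At least 1.5-fold lower were 22 of 48 members, against 16.0% of all genes, and among members of at least 10 TPM 15 of 38, against 7.42%. At least 2-fold lower were 9 members (3 when 5 TPM were added instead of 1), against 5.53% of genes, and 0 members were 2-fold higher, where 2.22% of genes were. Taking off the median of all genes put *Rsad2*, *Gbp7* and *Tap1* above the untreated level, by at most 0.09 on the log2 scale, and left 45 members below it.

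The effectors had the lowest median with FGF18, at -0.69, and 6 of the 9 members past 2-fold. *Ifitm1*, which encodes the family member found mainly at the cell surface, had 356 TPM in untreated cells, 87.7 TPM with FGF18 and 127 TPM with TGFb1. Its log2 ratio with FGF18 was -2.01, and 0.837% of genes had a lower ratio. *Ifitm2* had 2378, 1944 and 1891 TPM in the same order, and *Ifitm3* had 2267, 1794 and 1761 TPM. The 3 genes lie within 55.9 kb on chromosome 7 (140954837 to 141010770, GENCODE annotation of GRCm38), and *Ifitm1*, which lies between the others, had a much larger difference than its neighbors (log2 ratios of -0.29 for *Ifitm2* and -0.34 for *Ifitm3*). Reads of such similar genes may be shared between them in counting.

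*Isg20*, which encodes an exonuclease that degrades viral RNA, had 25.1 TPM in untreated cells, 10.4 TPM with FGF18 and 17.0 TPM with TGFb1 (log2 ratio -1.20 with FGF18). *Ifi44*, whose product has antiviral activity, had 13.2, 5.19 and 10.3 TPM (-1.20 with FGF18). *Rtp4*, which encodes a chaperone of receptors that also limits interferon responses in mice, had 110, 53.0 and 73.5 TPM (-1.04). For these 3 genes the lowest level was that with FGF18 and the level with TGFb1 lay between the others.

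*Zbp1*, which encodes a sensor of Z-form nucleic acids that can trigger necroptosis, had 9.98 TPM in untreated cells, 4.32 TPM with FGF18 and 9.90 TPM with TGFb1. Only FGF18 separated it from the untreated level (log2 ratio -1.05). *Mx2*, related to the dynamin-like antiviral GTPases but annotated as a polymorphic pseudogene, had 2.12, 0.118 and 0.830 TPM (-1.48 with FGF18), and its neighbor *Mx1*, within 114 kb on chromosome 16, had 9.20, 6.99 and 8.68 TPM (-0.35). The level of *Mx2* is so low that its ratio depends on the added constant, with -0.48 when 5 TPM were added and -3.34 when 0.1 TPM was. *Mx2* also passed the filter of 1 TPM only through its untreated level, so its place among the members past 2-fold rests on that level.

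*Isg15*, which encodes a ubiquitin-like protein attached to other proteins, was just short of 2-fold, with 61.7 TPM in untreated cells, 31.3 TPM with FGF18 and 46.9 TPM with TGFb1 (log2 ratio -0.96). *Oas2* had a log2 ratio of -0.80, *Oas1a* of -0.63 and *Oas3* of -0.60, all 3 in a cluster of 177 kb on chromosome 5. *Ifi35* and *Xaf1*, which encodes a promoter of cell death, were at -0.73 and -0.71. *Eif2ak2*, which encodes the kinase PKR that halts translation on double-stranded RNA, was at -0.46. The smallest differences among effectors were those of *Rsad2* (-0.07), *Bst2* (-0.13) and *Ifi27* (-0.16). *Ifi27* had 319 TPM in untreated cells, 286 TPM with FGF18 and 305 TPM with TGFb1. *Rsad2* encodes viperin, which makes an antiviral nucleotide, and *Cmpk2*, its neighbor within 37.1 kb on chromosome 12, encodes the kinase that supplies its substrate. *Rsad2* had 8.26, 7.82 and 5.50 TPM, and *Cmpk2* had 7.13, 4.08 and 5.03 TPM (-0.68 with FGF18). Of this pair *Rsad2* was lowest with TGFb1 and *Cmpk2* with FGF18.

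Of the 7 GTPases, which gather on the vacuoles of intracellular microbes, *Gbp2* and *Gbp3* were past 2-fold with FGF18. *Gbp2* had 43.7 TPM in untreated cells, 15.4 TPM with FGF18 and 24.6 TPM with TGFb1, a log2 ratio of -1.45 with FGF18. *Gbp3* had 19.8, 8.78 and 12.2 TPM (-1.09), whereas *Gbp7* of the same cluster had 13.1, 12.5 and 12.1 TPM (-0.06) and *Gbp5* had 13.4, 9.75 and 12.7 TPM (-0.42). *Gbp5*, *Gbp7*, *Gbp3* and *Gbp2* lie in this order within 144 kb on chromosome 3, and the 2 at one end of the cluster had the larger differences. All 4 held an ISRE match, including *Gbp7*, whose level was nearly the same in the 3 groups. *Gbp2*, *Gbp3* and *Gbp7* are among the members with near-identical neighbors, so their reads may be shared in counting. The IRG genes had log2 ratios of -0.56 (*Irgm1*), -0.36 (*Iigp1*) and -0.24 (*Igtp*).

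The regulators had a median of -0.38 with FGF18. *Irf7*, which encodes the transcription factor that drives most interferon alpha genes, had 34.6 TPM in untreated cells, 10.1 TPM with FGF18 and 20.9 TPM with TGFb1. Its log2 ratio with FGF18 was -1.68, and it was the 1 regulator past 2-fold after adding 1 TPM. *Usp18*, which encodes a protease that removes ISG15 and damps signaling from IFNAR2, had 30.3, 14.8 and 21.2 TPM (-0.98), which is just short of 2-fold only through the added constant. *Trim30a* had -0.73. The partners in the ISRE-binding complex differed less, with 32.4, 23.9 and 27.4 TPM for *Irf9* (-0.42) and 34.5, 26.1 and 26.4 TPM for *Stat2* (-0.39). Among the sensors of viral RNA, *Ddx58*, which encodes RIG-I, had 96.2, 83.0 and 90.9 TPM (-0.21), *Ifih1*, which encodes MDA5, had -0.32 and *Dhx58*, which encodes LGP2, had -0.49. *Parp14* was at -0.37, *Parp9* at -0.35, *Irf1* at -0.22 and *Trim25*, which encodes a ubiquitin ligase that activates RIG-I, at -0.18, with 17.0, 14.9 and 12.2 TPM. Apart from *Irf7*, *Usp18* and *Trim30a*, the regulators and sensors were thus within 1.5-fold of the untreated level.

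**Figure D2:**
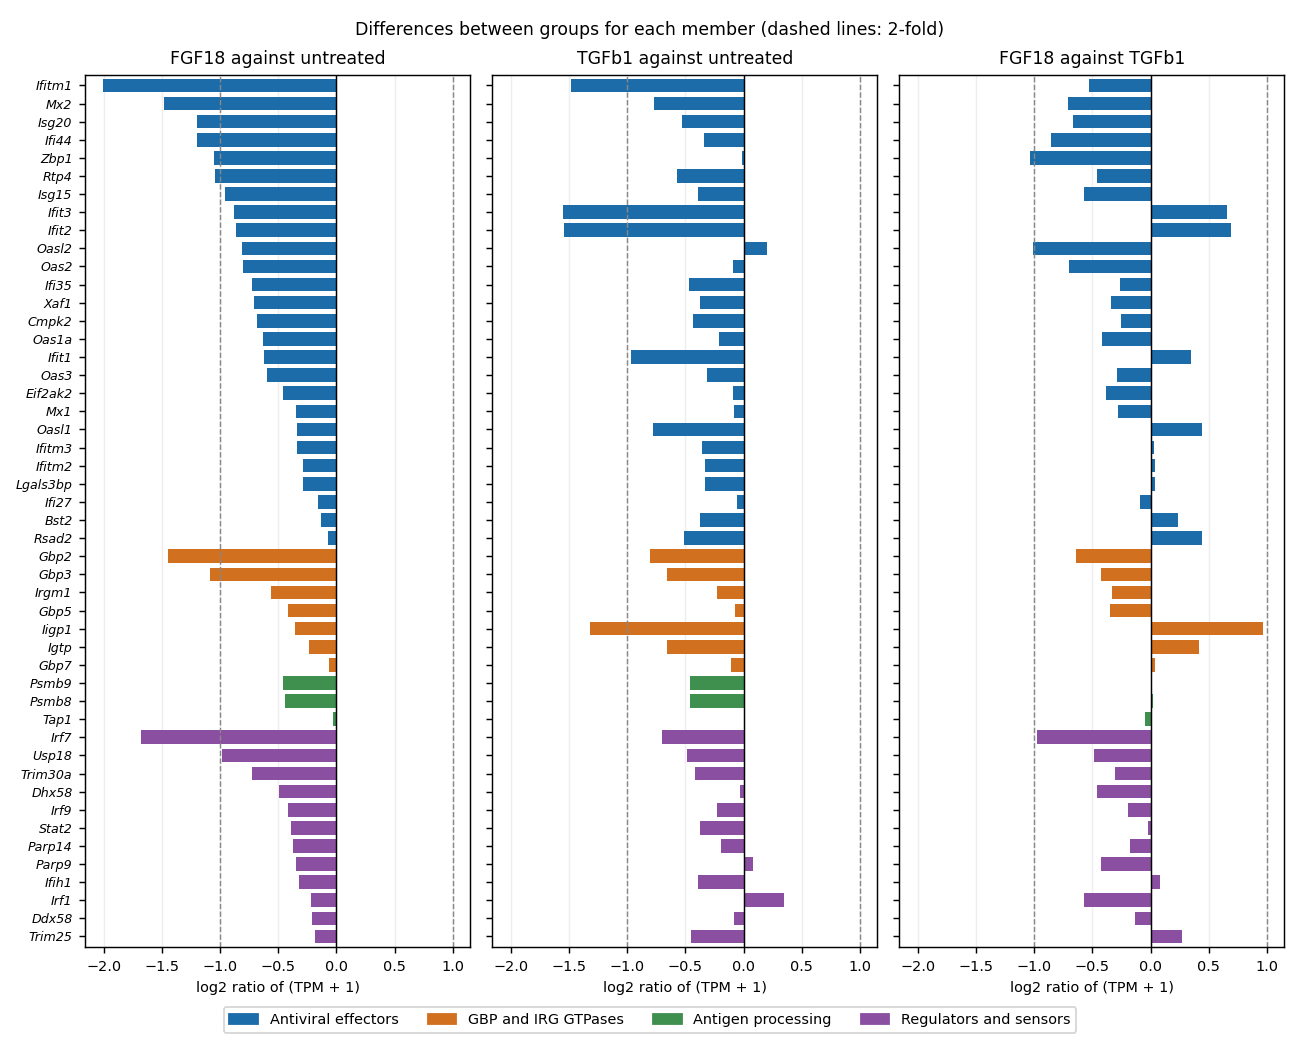
Log2 ratio of group means (after adding 1 TPM) of each member in the 3 comparisons, coloured by class, with dashed lines at 2-fold and no error. In the FGF18 panel all 48 bars point to the lower side and 9 pass the dashed line, in the TGFb1 panel 44 point to the lower side and 4 pass it.

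With TGFb1, 44 of the 48 members had a lower level than in untreated HSCs, where 50.4% of all genes were lower. Among members of at least 10 TPM it was 34 of 38, against 48.5%. The median log2 ratio was -0.37 over the members and -0.003 over all genes. At least 1.5-fold lower were 11 members, against 10.4% of all genes, and 8 of 38 at 10 TPM or more, against 5.47%. At least 2-fold lower were 4 members (*Ifit2*, *Ifit3*, *Ifitm1* and *Iigp1*), against 4.20% of genes, and 0 were 2-fold higher, where 3.94% of genes were. Most members thus lay to the lower side, few of them past 2-fold. The untreated means are the same as in the comparison with FGF18, so the results with FGF18 and with TGFb1 are not independent.

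*Ifit2* and *Ifit3*, which encode proteins that bind foreign RNA and block its translation, had the lowest ratios with TGFb1. *Ifit3* had 28.2 TPM in untreated cells, 14.8 TPM with FGF18 and 8.99 TPM with TGFb1, a log2 ratio of -1.55 with TGFb1 and -0.88 with FGF18. *Ifit2* had 11.4, 5.88 and 3.27 TPM (-1.54 and -0.86). *Ifit1* of the same cluster, which spans 99.3 kb on chromosome 19 from 34550694 to 34650009, had 24.8, 15.9 and 12.2 TPM (-0.97 and -0.62). All 3 had their lowest level with TGFb1, unlike *Isg20*, *Ifi44* and *Rtp4*, and *Ifit1* and *Ifit3* have near-identical copies outside the list.

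*Iigp1*, which encodes an immunity-related GTPase that attacks parasite vacuoles, had 56.0 TPM in untreated cells, 43.6 TPM with FGF18 and 21.8 TPM with TGFb1, a log2 ratio of -1.32 with TGFb1. *Igtp* of the same family had 27.0, 22.7 and 16.7 TPM (-0.66), and *Irgm1*, which encodes a regulator of that family, had 59.8, 40.3 and 50.8 TPM (-0.23). *Ifitm1* had a log2 ratio of -1.48 with TGFb1. *Oasl1*, which encodes an inhibitor of *Irf7* translation in mice, had 10.6, 8.13 and 5.73 TPM (-0.78 with TGFb1), whereas its neighbor *Oasl2*, within 41.0 kb on chromosome 5, had 41.5, 23.3 and 47.7 TPM. Neighbors of one family thus differed in which stimulus had the lower level. *Oasl1* and *Oasl2* are also among the members with near-identical neighbors, so their reads may be shared in counting.

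With TGFb1, 4 members were above untreated. *Irf1*, which encodes a transcription factor that responds to interferon gamma and many other signals, had 35.6 TPM in untreated cells, 30.5 TPM with FGF18 and 45.6 TPM with TGFb1, a log2 ratio of 0.35 with TGFb1. *Oasl2* had 0.20, *Parp9* 0.08 and *Tap1* 0.01. All of these lie under 1.5-fold (0.58 on the log2 scale).

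The 3 antigen processing genes had nearly the same level with FGF18 as with TGFb1. *Psmb8*, a catalytic subunit of the immunoproteasome, had 98.8 TPM in untreated cells, 72.8 TPM with FGF18 and 71.8 TPM with TGFb1. *Psmb9*, another catalytic subunit, had 22.8, 16.3 and 16.3 TPM. Both had log2 ratios between -0.44 and -0.46. *Tap1*, a chain of the transporter that carries peptides into the endoplasmic reticulum, had 18.3, 17.8 and 18.5 TPM. *Tap1* and *Psmb9* are divergent genes on chromosome 17 that overlap by 212 bases in the annotation, with promoter windows that share 275 bases, and reads from the overlap may not be told apart without strand. Despite that shared start, *Psmb9* had a lower level with both stimuli and *Tap1* nearly the same level in the 3 groups.

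Immunoproteasome subunits replace constitutive ones. The level of *Psmb8* was 38.8% of that of *Psmb5*, the subunit it replaces, in untreated cells, 26.4% with FGF18 and 25.3% with TGFb1. For *Psmb9* and *Psmb6* the values were 4.06%, 2.78% and 2.65%. For *Psmb10*, the third inducible subunit and not a member, and *Psmb7* they were 96.0%, 61.6% and 57.1%. All 3 inducible subunits were lower relative to their counterparts with either stimulus, and the constitutive subunits themselves differed by at most 0.16 on the log2 scale.

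**Figure D3:**
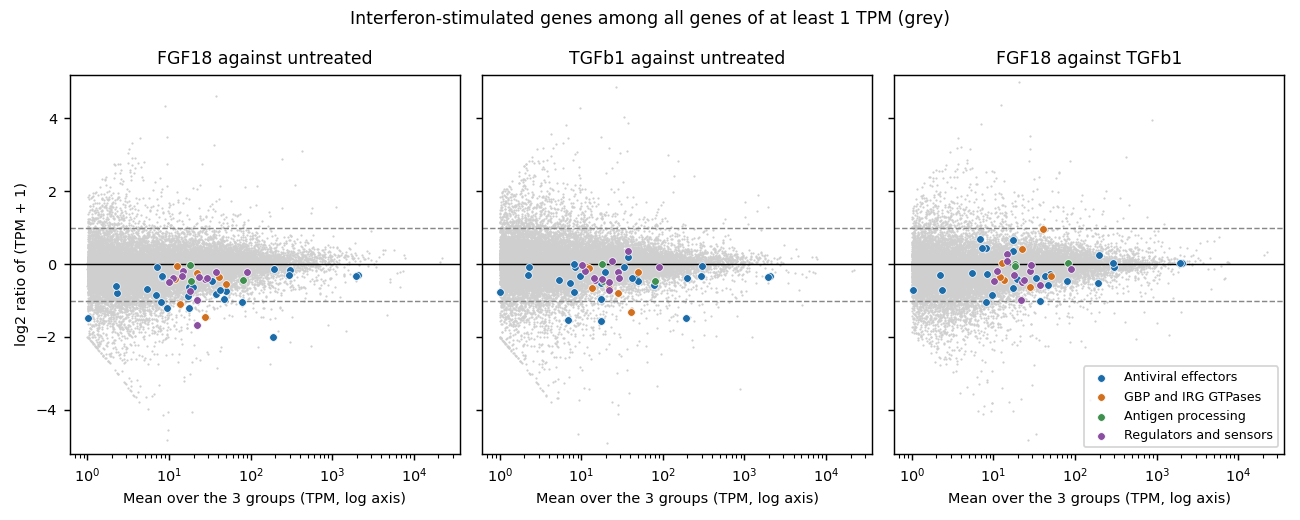
Log2 ratio against mean level over the 3 groups (TPM, log axis) for all 20908 genes of at least 1 TPM (grey) and for the members (coloured by class) in the 3 comparisons, with dashed lines at 2-fold. The members lie mostly below 0 in the first 2 panels, within the range of other genes of like level, and on both sides of 0 in the third, where *Iigp1* is highest at 0.97.

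FGF18 and TGFb1 were also compared directly, with ratios that do not involve the untreated group, although the filter of 1 TPM does. Of the 48 members, 32 were lower with FGF18 than with TGFb1, close to the 62.9% of all genes that were, and 25 of 38 at 10 TPM or more, against 57.4%. The median log2 ratio was -0.27 over the members and -0.123 over all genes. At least 1.5-fold lower with FGF18 were 8 members (14.4% of genes), and 4 of 38 at 10 TPM or more (6.16%). These shares were close to the background.

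Single members differed in both directions. At least 2-fold lower with FGF18 than with TGFb1 were *Zbp1* (-1.04) and *Oasl2* (-1.01), against 5.16% of genes, and *Irf7* lay just short of it at -0.98 after adding 1 TPM. Also past 1.5-fold were *Ifi44* (-0.86), *Mx2* (-0.71), *Oas2* (-0.70), *Isg20* (-0.67) and *Gbp2* (-0.64). *Mx2* was below 1 TPM in both of these groups (0.118 TPM with FGF18 and 0.830 TPM with TGFb1) and passed the filter only through its untreated level. At least 1.5-fold higher with FGF18 were *Iigp1* (0.97), *Ifit2* (0.69) and *Ifit3* (0.66), against 6.20% of genes, and 0 members were 2-fold higher, against 2.51%. Taking off the median of genes of at least 10 TPM (-0.052) left 0 members 2-fold lower and put 1, *Iigp1*, 2-fold higher. The counts in both directions were close to the shares of all genes, so the split is not a result about the members as a set. By single values, *Irf7*, *Isg20* and *Ifi44* had their lowest level under FGF18. The *Ifit* genes, *Iigp1* and *Oasl1* had theirs under TGFb1.

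The genes upstream of the ISGs were taken from lists of ligands, receptors and signaling proteins. *Ifnb1*, which encodes interferon beta, had 2.95 TPM in untreated cells, 0.481 TPM with FGF18 and 4.49 TPM with TGFb1. The other 8 interferon genes that the tables list were at or below 1.61 TPM in every group, and 4 of them were listed at 0 in at least 1 group. These levels are near the lower limit, and their differences rest on very little signal. Of 6 receptor chains, 5 had a mean of at least 1 TPM and 0 of these passed 1.5-fold with either stimulus. Among all genes, 16.0% were at least 1.5-fold lower with FGF18 and 10.4% with TGFb1, so 0 among so few genes is close to the background. *Ifnar1* had 42.6, 41.8 and 43.0 TPM and *Ifnar2* 412, 323 and 378 TPM.

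Of 8 signaling genes (kinases, *Stat3* and inhibitors), 0 passed 1.5-fold with FGF18 or TGFb1. For so few genes, this too is close to the shares of all genes 1.5-fold lower (16.0% with FGF18 and 10.4% with TGFb1). *Jak1* had 174 TPM in untreated cells, 162 TPM with FGF18 and 121 TPM with TGFb1, and *Tyk2* had 18.8, 19.0 and 17.4 TPM. *Irf8*, which encodes a factor of myeloid cells, had 18.7, 15.9 and 9.27 TPM (-0.94 with TGFb1), and *Irf3*, which encodes the factor that starts interferon beta transcription, had 49.1, 53.6 and 43.2 TPM. Of 10 sensing genes of at least 1 TPM, *Tlr7*, which encodes a receptor of single-stranded RNA, was the 1 past 2-fold with FGF18. It was higher (0.376, 3.16 and 1.04 TPM), where 2.22% of all genes were 2-fold higher. *Tlr7* passed the filter of 1 TPM only through its level with FGF18, and its levels are near the lower limit. Of the other IRF genes, *Irf5* had the highest ratio with FGF18 (5.53, 9.08 and 5.39 TPM, log2 ratio 0.63).

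The MHC class I pathway outside the list was measured with 11 genes. With FGF18, 10 were lower (61.8% of all genes) and 4 at least 1.5-fold lower (16.0%). Their median log2 ratio was -0.39, against -0.121 over all genes. With TGFb1, 9 were lower (50.4%) and 3 at least 1.5-fold lower (10.4%), with a median of -0.30, against -0.003. *Nlrc5*, which encodes the transactivator of class I genes, had 15.3 TPM in untreated cells, 8.46 TPM with FGF18 and 5.83 TPM with TGFb1 (-0.78 and -1.25). *B2m*, the light chain of class I molecules, had 5841, 4422 and 4869 TPM, and the heavy chain gene *H2-K1* had 1044, 798 and 1018 TPM. *H2-T23*, a nonclassical class I gene, had 103, 59.2 and 58.4 TPM. *H2-D1*, the 1 gene of this list that was not lower with FGF18, had 3367, 3368 and 2997 TPM. The receptors, by comparison, had medians of -0.03 and -0.01. The 7 genes of MHC class II were at or below 4.94 TPM in every group.

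**Figure D4:**
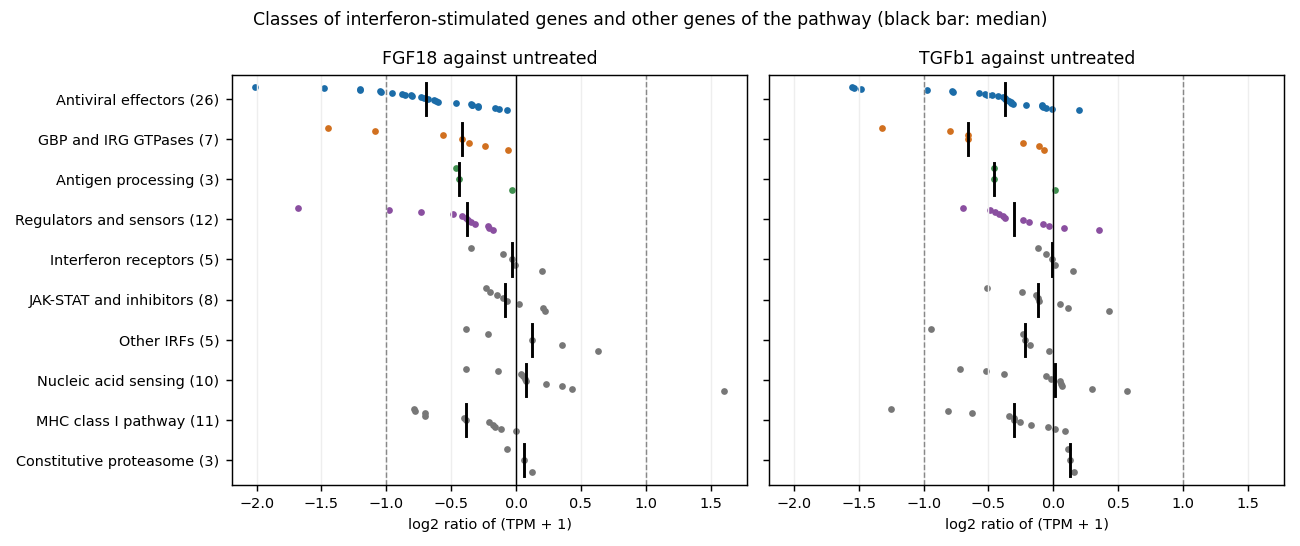
Log2 ratio against untreated of each gene of at least 1 TPM in the 4 classes of members (coloured) and in 6 lists of other genes of the pathway (grey), with FGF18 and with TGFb1, black bars being medians and dashed lines 2-fold. The 4 classes and the MHC class I pathway have medians from -0.69 to -0.30. The medians of the receptors (-0.03 and -0.01) and of the signaling genes (-0.09 and -0.11) are also below 0, by less. The remaining lists have medians from -0.22 to 0.13, and all genes -0.121 and -0.003.

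Markers of the cell types in the cultures were measured in the same tables. Stellate cell markers were abundant, with a summed level over 10 genes of 8997 TPM in untreated cells, 4345 TPM with FGF18 and 5435 TPM with TGFb1. Most of that sum was *Dcn*, which encodes decorin (7021, 2661 and 4276 TPM). *Lrat*, which encodes the enzyme that stores retinol, had 151, 61.6 and 43.9 TPM. With FGF18, 8 of these 10 were lower than in untreated cells, against 61.8% of all genes of at least 1 TPM. With TGFb1 9 were, against 50.4%. The exception with TGFb1 was *Pdgfrb*, which was 2-fold higher (66.3, 49.6 and 139 TPM). With FGF18, *Reln* (208, 234 and 173 TPM) and *Lhx2* (14.8, 15.3 and 13.3 TPM) were not lower. The 10 endothelial markers summed to 372, 276 and 155 TPM. Of the 9 with a mean of at least 1 TPM, 7 were 2-fold lower with TGFb1 (4.20% of genes) and 0 with FGF18 (5.53%). The 10 macrophage markers summed to 113, 138 and 146 TPM, nearly all of it from *Cd68* and *Lyz2*, whereas *Adgre1* and *Clec4f* were at or below 0.674 TPM. *Cd68* (52.1, 85.0 and 43.0 TPM) and *Lyz2* (54.5, 44.8 and 92.9 TPM) differed from untreated in opposite directions with each stimulus. The 10 hepatocyte markers summed to 20.7, 21.8 and 22.3 TPM, and the 10 lymphocyte and plasmacytoid markers to 52.6, 43.0 and 54.4 TPM, with *Gzma* listed at 0 in untreated cells. The ISGs are also expressed by endothelial and immune cells, and the part of these cells in the ISG levels was not tested.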

How the data were processed

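RNA of cultured HSCs was sequenced from SMART-Seq HT PLUS libraries, and per the labels the authors aligned them to GRCm38 (mm10) and used RaNA-seq, a web service. For the aligner, counter, annotation and versions: not given in the sources used here. Deposited TPM values are the authors' means over the samples of a group. The columns of the 3 groups sum to 999986 (untreated), 999995 (FGF18) and 999992 TPM (TGFb1), and every value times 3 had at most 6 decimals, as means of 3 samples would. The columns are named A and B. A was taken as untreated from the order in each table's title and because it is identical for all 30595 symbols in both tables. The tables also hold the authors' own fold changes, standard errors, statistics and p-values, which were not used. Rows with a repeated symbol (106 and 104) were left out.

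Each comparison is the log2 ratio of 2 group means with a pseudocount of 1 TPM, over genes with a mean over the 3 groups of at least 1 TPM, counted at 1.5-fold and 2-fold. There are no values per library, so depth is unknown, and since the authors' standard errors and p-values were not used, no precision is given and no test was run. The counting step was tested on simulated data. The members, classes and other lists were chosen with earlier results of these data known. All values are given for members past 2-fold in any comparison, the 3 highest of each class by mean level and the extremes of each class. Other genes come from the lists, of which 1 gene is not reported here. Alternatives were pseudocounts of 0.1 and 5 TPM, no filter, a mean of at least 10 TPM, centring on the median of all genes, and leaving out 10 members with near-identical neighbors. Coordinates come from the GENCODE annotation of GRCm38 and promoters from RefSeq (GRCm38.p6). Computations used Python 3.11.15 with numpy 2.4.6 and pandas 2.3.3, and figures matplotlib 3.10.9.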

Additional observations from a re-analysis of the deposited data

Results flagged for a closer look

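The authors' mean level of 4 members lay above untreated with TGFb1 and below it with FGF18. The log2 ratio of FGF18 to TGFb1 was -1.01 for *Oasl2*, -0.57 for *Irf1*, -0.43 for *Parp9* and -0.05 for *Tap1*. The difference between the stimuli was not tested, since each group has a single mean, and that of *Tap1* was 0.00 once the median of genes of at least 10 TPM was taken off.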

How the results depend on the processing

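Of 112 values for the counts and medians of the list under alternatives, 97 kept within 1.5 times the count or 0.1 of the median log2 ratio, and 0 medians turned sign. With FGF18 against untreated, 9 members were 2-fold lower, 3 with a pseudocount of 5 TPM and 22 at 1.5-fold. With TGFb1 against untreated, 4 were 2-fold lower and 11 at 1.5-fold. For FGF18 against TGFb1, where 2 members were 2-fold lower and 0 higher, there were 5 lower with a pseudocount of 0.1 TPM and 0 with 5 TPM, 1 at a mean of at least 10 TPM and 1 without near-identical neighbors, and 8 lower and 3 higher at 1.5-fold. Centring on genes of at least 10 TPM, or of at least 1 TPM, gave 0 lower and 1 higher. The centring on genes of at least 1 TPM, chosen after seeing the data, moved the median over the members to -0.35 (FGF18 against untreated) and -0.14 (FGF18 against TGFb1). For FGF18 against untreated, it left 6 members 2-fold lower, without *Gbp3* (-0.97), *Rtp4* (-0.92) and *Zbp1* (-0.92). Over all genes it moved the share of lower among genes past 2-fold from 71.3% to 57.4% and from 67.3% to 55.3%. Of 126 values for single members past 2-fold, 115 were counted as unchanged, 11 as moved, and 0 turned sign. Those that moved did so with another pseudocount. With 5 TPM added, the log2 ratios with FGF18 of *Isg20* (-0.97), *Ifi44* (-0.84), *Gbp3* (-0.85) and *Zbp1* (-0.68) fell short of 2-fold. The same held for *Mx2* (-0.48) and for *Rtp4* (-0.99), the latter counted as unchanged. So did that of *Ifit2* with TGFb1 (-0.99). Leaving out *Ifit1* and *Ifit3*, also chosen after seeing the data, moved no count or median past these limits. No paired analysis was possible because the tables hold no values per library, and leaving out a replicate was not run for the same reason. Without the filter on low values no summary moved, and 0 genes differed in untreated level between the tables, so leaving such genes out changed nothing. The cause of the shifts was not tested.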
